A study of Mus musculus with 36 samples.

Results

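The transcription factors through which the circadian clock passes its rhythm on to other genes were measured in the forebrain of 18 adult mice, on 36 expression arrays. The set holds 7 genes: Dbp, Tef, Hlf, Nfil3, Ciart, Bhlhe40 and Bhlhe41. They were found by the gene symbol that the array's annotation gives to a probe set, which is a group of short probes read together, designed for a transcript or for several. This gave 12 of the 45101 probe sets, with 1 probe set each for Nfil3, Ciart and Bhlhe40. A filter on low signal kept 28768 probe sets, among them 11 of the 12. All 11 passed it in both fractions, and the set left out was a second, dim one of Bhlhe41.

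Every mouse was a heterozygous Cnp – eGFP-L10a animal on the C57BL/6 strain. In these mice the Cnp promoter, active in oligodendrocytes (the myelin-forming cells), drives a tagged ribosomal protein, so all groups carried the tag. From each animal the tagged ribosomes were pulled down to give the bound fraction. The supernatant gave the unbound fraction, which holds the RNA of the other cells and oligodendrocyte RNA that was not pulled down. There were 6 animals per state. Sleep deprived mice had been awake for most of the dark phase and were then kept awake for 4 h of the light phase with unfamiliar objects. Waking mice were killed in the dark, between 3 and 5 am, having been awake for 70% or more of the last 6 to 7 h. Sleeping mice were killed in the light, between 3 and 5 pm, having slept for 75% or more of that window. Waking and sleep therefore differed in the time of day as well, and the effects of state and time of day cannot be told apart in that comparison. The same holds for sleep deprivation against waking, since the sleep deprived mice were taken in the light and the waking mice in the dark: kind of wake and time of day cannot be told apart there. Sleep deprivation and sleep were both sampled in the light phase, but the labels give no clock hour for the sleep deprived animals. A difference in hour within the light phase therefore cannot be told apart from state in that comparison.

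The clock's core is a loop in which CLOCK and BMAL1 bind E-boxes and switch on their own repressors, the Period and Cryptochrome proteins. Dbp, Tef and Hlf are PAR bZIP activators, which carry that rhythm on by binding D-boxes in other genes, and Nfil3 (E4BP4) is a repressor that competes for the D-box. Bhlhe40 (DEC1) and Bhlhe41 (DEC2) are basic helix-loop-helix repressors that compete at the E-box, and Ciart (CHRONO) represses CLOCK and BMAL1. In mouse liver Dbp is a direct E-box target of CLOCK and BMAL1, and Bhlhe40 is also known as a gene induced by cell activity and stress.

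The promoters of 4 members that changed with state are given. They were searched for the E-box, the D-box and the CRE (the site of CREB, which answers to cAMP and calcium). These are among the routes by which clock genes are known to be switched. Other sites were not searched, so a promoter without a match may still be switched by another route. They are RefSeq sequences on build GRCm38.p6, from 250 bases before to 50 bases after the annotated start, written on the gene's own strand, and capitals mark a motif match. Dbp lies at chr7:45704997-45705296 on the plus strand, Ciart at chr3:95882179-95882478 on the minus strand, Hlf at chr11:90390868-90391167 on the minus strand and Nfil3 at chr13:52980990-52981289 on the minus strand.
Dbp: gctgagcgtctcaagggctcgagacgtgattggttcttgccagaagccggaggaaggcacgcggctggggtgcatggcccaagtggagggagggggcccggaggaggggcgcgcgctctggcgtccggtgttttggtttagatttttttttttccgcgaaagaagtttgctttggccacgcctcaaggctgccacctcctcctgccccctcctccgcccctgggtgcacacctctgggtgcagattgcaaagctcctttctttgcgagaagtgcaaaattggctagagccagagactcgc
Ciart: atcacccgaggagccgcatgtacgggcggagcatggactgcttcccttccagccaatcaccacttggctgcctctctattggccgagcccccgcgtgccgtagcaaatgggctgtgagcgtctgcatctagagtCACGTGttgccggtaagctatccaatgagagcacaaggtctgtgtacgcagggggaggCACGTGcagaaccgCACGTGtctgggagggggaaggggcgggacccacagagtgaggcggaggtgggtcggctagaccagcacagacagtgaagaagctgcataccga
Hlf: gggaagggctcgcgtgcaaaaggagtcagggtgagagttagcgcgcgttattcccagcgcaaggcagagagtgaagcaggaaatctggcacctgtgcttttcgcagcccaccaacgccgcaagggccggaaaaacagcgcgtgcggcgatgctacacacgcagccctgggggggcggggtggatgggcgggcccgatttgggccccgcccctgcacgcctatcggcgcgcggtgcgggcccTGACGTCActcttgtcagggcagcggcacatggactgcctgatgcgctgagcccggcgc
Nfil3: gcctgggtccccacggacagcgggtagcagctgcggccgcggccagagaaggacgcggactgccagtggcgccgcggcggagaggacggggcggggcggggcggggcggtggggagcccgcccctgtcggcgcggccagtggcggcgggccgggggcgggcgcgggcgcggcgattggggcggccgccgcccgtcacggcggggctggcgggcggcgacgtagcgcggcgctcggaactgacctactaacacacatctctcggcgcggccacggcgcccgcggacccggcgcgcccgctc
The motifs searched on both strands were CACGTG for the E-box, TTATGNAA for the D-box and TGACGTCA for the CRE. They do not overlap one another in these windows. Of 32851 promoters of the same length, 7.15% held the E-box, 3.38% the D-box and 1.79% the CRE. The table holds 7 promoters of 6 members and none of Bhlhe40, which was therefore not searched. The Ciart promoter held 3 E-boxes, whose first bases lie at −116, −58 and −44 from the start. The Hlf promoter held 1 CRE at −9. Neither Dbp nor Nfil3 had a match in this window. Of the promoters not printed, the 2 of Tef and the 1 of Bhlhe41 each held 1 E-box, at −127, −138 and −153. No member promoter in the table held the D-box letters.

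The values are log2 signals per probe set, and a difference of 1 is a doubling of signal. The number of arrays limits their precision. Tests were made with limma over all 28768 probe sets, p-values were adjusted by Benjamini and Hochberg's method within each contrast, and a change is said to be called where the adjusted p was below 0.05. Errors of changes are standard errors. The mean of all probe sets on an array varied little within a group (SD 0.00293 to 0.00994, n = 6) but averaged 6.41, 6.34 and 6.40 in unbound sleep deprived, waking and sleep arrays. In bound arrays it averaged 5.91, 5.93 and 5.92. The median change of all probe sets was accordingly 0.11 in unbound sleep deprivation against waking, −0.09 in unbound waking against sleep and −0.40 in bound against unbound. In the other state contrasts it lay between −0.01 and 0.02. Sex-linked probe sets set apart 3 animals, of which 2 were waking (numbers 3 and 5) and 1 was sleep deprived (number 11), and results are given without them where that changed a call.

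**Figure D1:**
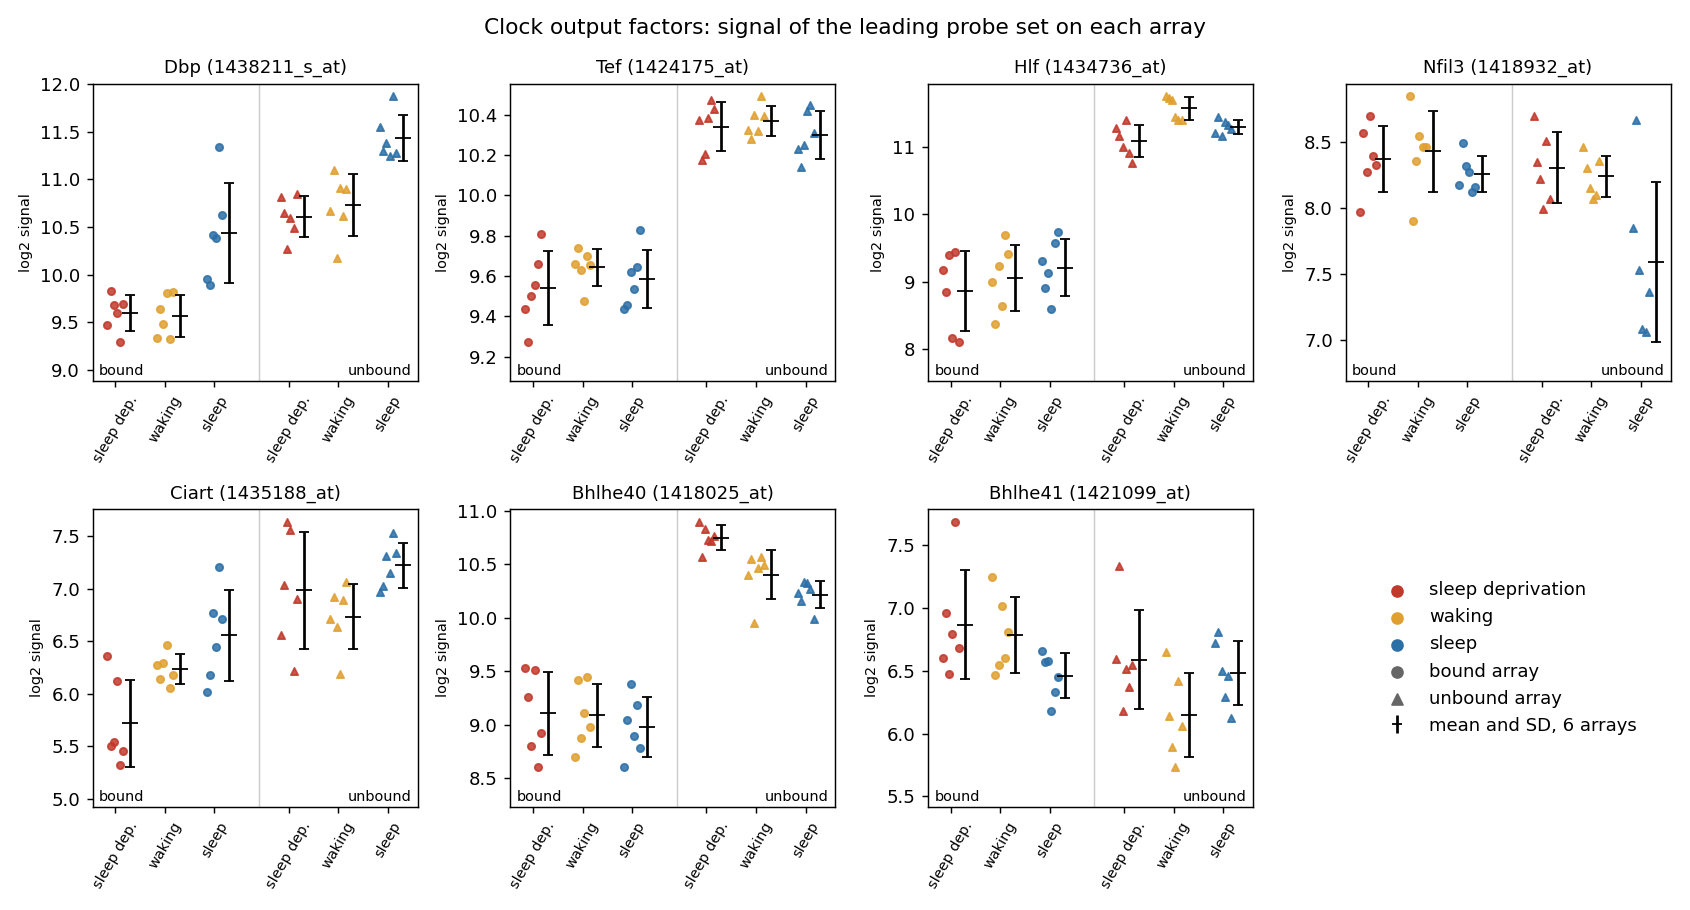
Log2 signal of the leading probe set of each of the 7 genes on every array (vertical axis), by state and fraction (horizontal axis), with the mean and SD of 6 arrays. Dbp is lowest in both wake groups of either fraction, Ciart is lowest in bound sleep deprivation, and Bhlhe40 is highest in unbound sleep deprivation.

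Dbp, a PAR bZIP activator known for its strong daily rhythm, was lower after both kinds of wake than in sleep, in oligodendrocyte-bound RNA and in the unbound RNA. Its leading probe set, the one with the highest mean (whose identifier marks it as a set that can match several transcripts), fell to 9.57 ± 0.22 log2 in bound waking arrays, against 10.44 ± 0.52 in bound sleep arrays (SD, n = 6). In unbound arrays it averaged 10.73 ± 0.33 in waking and 11.44 ± 0.24 in sleep. Sleep deprivation gave 9.60 ± 0.19 in bound and 10.61 ± 0.21 in unbound arrays, close to waking in each.

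On single arrays, bound Dbp had a lowest, median and highest value of 9.30, 9.64 and 9.83 in sleep deprivation, 9.32, 9.57 and 9.82 in waking, and 9.89, 10.40 and 11.34 in sleep. Every sleep array lay above all 12 wake arrays, and the highest of them stood far above the rest. In unbound arrays the values were 10.27, 10.62 and 10.84 in sleep deprivation, 10.17, 10.78 and 11.10 in waking, and 11.24, 11.34 and 11.88 in sleep. Here too no wake array reached the lowest sleep array. Groups without overlap were found in 6.09% of all probe sets for bound waking against sleep, 7.5% for bound sleep deprivation against sleep, 4.64% for unbound waking against sleep and 5.2% for unbound sleep deprivation against sleep.

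The bound change of Dbp was −0.87 ± 0.19 in waking against sleep (1.82-fold lower, limma adjusted p = 0.00600) and −0.84 ± 0.19 in sleep deprivation against sleep (1.79-fold lower, adjusted p = 0.00511). The unbound change was −0.71 ± 0.14 in waking (1.64-fold lower, adjusted p = 0.00460) and −0.83 ± 0.14 in sleep deprivation (1.78-fold lower, adjusted p = 0.00112). Relative to the median change of all probe sets, the unbound changes were −0.62 and −0.85. Comparisons within a fraction share their sleep animals. Sleep deprivation and waking differed by 0.03 (95% interval −0.36 to 0.42) in bound and −0.12 (−0.41 to 0.17) in unbound arrays, neither called. The change in bound RNA was not shown to differ in size from that in unbound RNA: the difference was −0.16 ± 0.18 for waking (adjusted p = 0.665) and −0.01 ± 0.18 for sleep deprivation (adjusted p = 0.984).

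A second Dbp probe set followed the leading one over the 18 arrays of a fraction, which share the 3 states (r = 0.846 in bound and 0.943 in unbound arrays). It was called in unbound arrays, at −0.68 ± 0.15 in waking against sleep (adjusted p = 0.0111) and −0.86 ± 0.15 in sleep deprivation against sleep (adjusted p = 0.00185). Without the 3 animals the waking change was −0.55 and was then not called (adjusted p = 0.0687). In bound arrays it was −0.57 ± 0.18 (adjusted p = 0.0586) and −0.40 ± 0.18 (adjusted p = 0.167). The first of these was called when sleep animal 2 (adjusted p = 0.0394) or sleep deprived animal 11 (adjusted p = 0.0492) was left out, and with no filter on low signal (adjusted p = 0.0396).

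**Figure D2:**
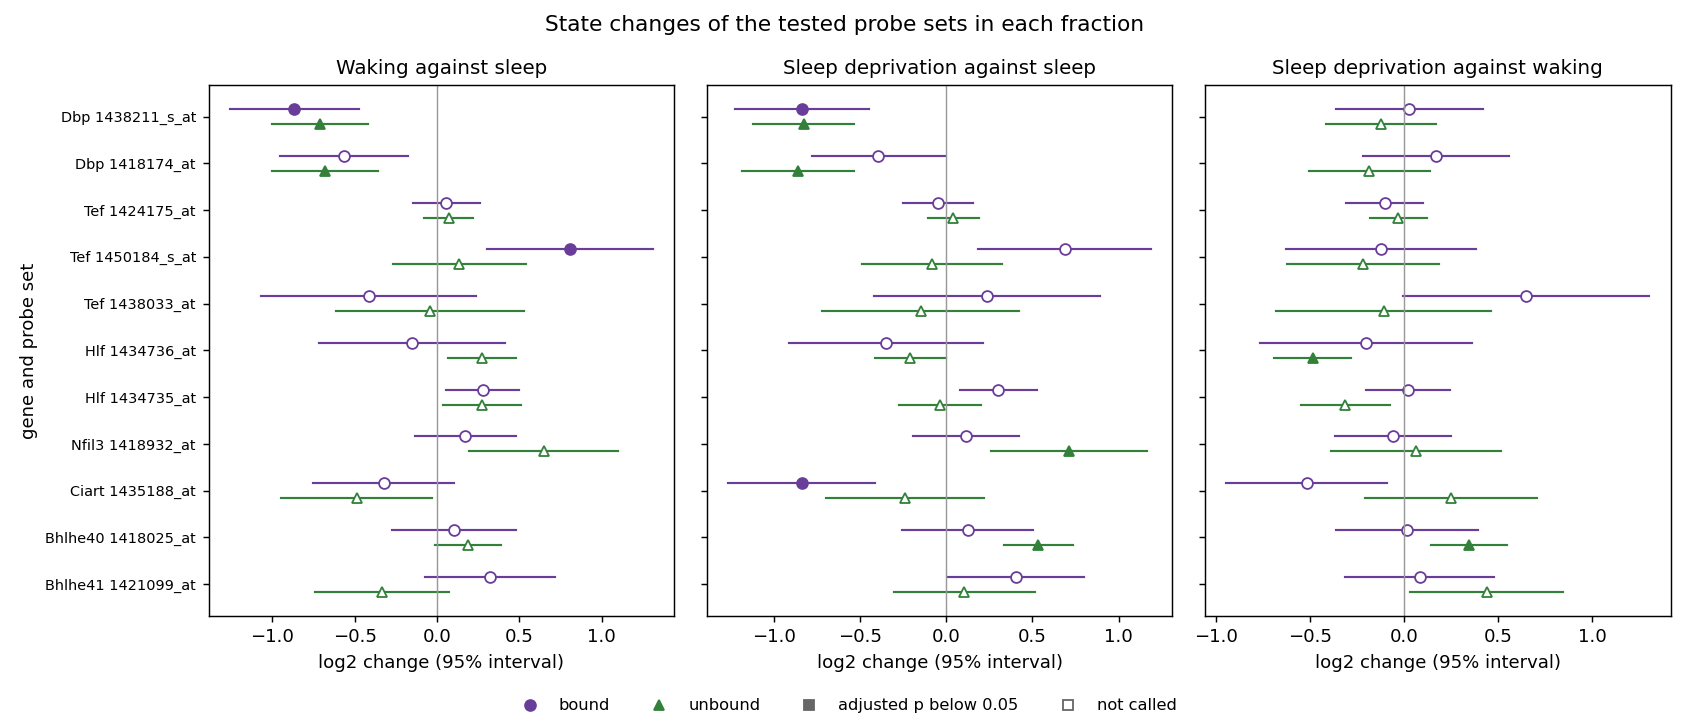
Log2 change with its 95% interval (horizontal axis) of the 11 tested probe sets (vertical axis) in bound and unbound arrays, 6 animals per state; filled symbols have an adjusted p below 0.05. Dbp lies left of 0 in both fractions against sleep, and the called changes of Bhlhe40, Nfil3 and Hlf are all in unbound arrays.

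Tef, the second PAR bZIP activator, held nearly the same signal in every state by its leading probe set. In bound arrays the lowest, median and highest values were 9.27, 9.53 and 9.81 in sleep deprivation, 9.48, 9.66 and 9.74 in waking, and 9.44, 9.58 and 9.83 in sleep. In unbound arrays they were 10.18, 10.38 and 10.47, then 10.28, 10.36 and 10.49, then 10.14, 10.28 and 10.45 in the same order of states. The 3 states overlapped in both fractions. The 95% interval of the change was −0.15 to 0.26 in bound waking against sleep and −0.25 to 0.16 in bound sleep deprivation against sleep. It was −0.08 to 0.22 and −0.11 to 0.19 for the same contrasts in unbound arrays.

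A second Tef probe set, also marked as matching several transcripts, gave another picture in bound arrays. It reached 7.38, 7.75 and 8.67 (lowest, median, highest) in sleep deprivation and 7.35, 8.02 and 8.57 in waking, against 6.77, 7.13 and 7.64 in sleep. The ranges overlapped, and 6 of 6 waking animals stood above the sleep mean. The change was 0.81 ± 0.24 in waking against sleep (adjusted p = 0.0383) and 0.69 ± 0.24 in sleep deprivation against sleep (adjusted p = 0.0607). The waking call was lost without the 3 animals (0.59, adjusted p = 0.203) and with any 1 of sleep animals 2, 3, 4 and 6 or waking animals 2, 3 and 5 left out (adjusted p 0.0656 to 0.0926). The sleep deprivation change was called when sleep animal 1 (adjusted p = 0.0493), sleep animal 5 (0.0476), sleep deprived animal 7 (0.0428) or waking animal 1 (0.0495) was left out, and with no filter on low signal (0.0480). Over 18 bound arrays this set and the leading one had r = 0.149, so the probe sets of Tef do not give 1 answer. The third set was dim in bound arrays, with 3.91 to 5.97 over all 18 against a filter level of 4.47, and had no called state change.

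Hlf, the third PAR bZIP activator, was lower in sleep deprived mice, taken in the light, than in waking mice, taken in the dark, in unbound RNA. Its leading probe set read 10.75, 11.08 and 11.39 (lowest, median, highest) in unbound sleep deprived arrays, 11.39, 11.56 and 11.75 in waking and 11.15, 11.29 and 11.44 in sleep. Waking was the highest of the 3, and the highest sleep deprived array touched the lowest waking one. Sleep deprivation against waking gave −0.48 ± 0.10 (1.40-fold lower, adjusted p = 0.00487), or −0.60 relative to the median change of all probe sets. Waking against sleep gave 0.27 ± 0.10 and sleep deprivation against sleep −0.21 ± 0.10, neither called (adjusted p = 0.0921 and 0.209). Relative to the median change of all probe sets, these were 0.36 and −0.24. With the fraction's arrays brought to equal quantiles, the waking change was called (0.35, adjusted p = 0.0380).

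In bound arrays the same Hlf probe set scattered widely, with 8.11 to 9.45 in sleep deprivation, 8.37 to 9.69 in waking and 8.60 to 9.73 in sleep. No state change was called there. The second Hlf set read 7.15 to 7.38 in bound waking and 6.75 to 7.11 in bound sleep arrays, without overlap. Its change of 0.28 ± 0.11 was not called (adjusted p = 0.106), and neither was 0.30 ± 0.11 in sleep deprivation against sleep (adjusted p = 0.0623), which was called without sleep deprived animal 7 (adjusted p = 0.0403). With no intensity trend in the fit both were called (adjusted p = 0.0458 for waking and 0.0235 for sleep deprivation). In unbound sleep deprivation against waking this set gave −0.31 ± 0.11 (adjusted p = 0.0879), and −0.41 without sleep deprived animal 9 (adjusted p = 0.0125). It was also called with the fraction's arrays at equal quantiles (−0.44, adjusted p = 0.0361). The 2 sets had r = 0.592 over the unbound and −0.354 over the bound arrays.

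Nfil3, the repressor that competes with the PAR bZIP activators for the D-box, was higher in unbound RNA after sleep deprivation than in sleep, at the edge of the threshold. Unbound arrays read 7.99, 8.28 and 8.69 (lowest, median, highest) in sleep deprivation and 8.07, 8.22 and 8.46 in waking, against 7.06, 7.45 and 8.66 in sleep. Sleep animal 2 held the value of 8.66, and the other 5 sleep arrays lay below every wake array. Sleep deprivation against sleep gave 0.71 ± 0.22 (adjusted p = 0.0486). The call was lost when any 1 animal was left out, except sleep animal 2, waking animal 3 or sleep deprived animal 9 (adjusted p 0.0541 to 0.108 where lost). It was also lost with the fraction's arrays at equal quantiles (0.68, adjusted p = 0.0599), with no intensity trend (adjusted p = 0.0503) and without the 3 animals (adjusted p = 0.0661). Waking against sleep gave 0.65 ± 0.22 (adjusted p = 0.0710), or 0.74 relative to the median change of all probe sets. It gave 0.86 without sleep animal 2 and was then called (adjusted p = 0.00517). It was also called with no filter on low signal (adjusted p = 0.0498) and with the fraction's arrays at equal quantiles (adjusted p = 0.0491).

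In bound arrays Nfil3 read 7.97, 8.36 and 8.69 in sleep deprivation, 7.90, 8.46 and 8.84 in waking and 8.12, 8.22 and 8.49 in sleep. These ranges overlapped, and neither 0.11 ± 0.15 for sleep deprivation nor 0.17 ± 0.15 for waking against sleep was called. The unbound change was not shown to differ from the bound one (−0.60 ± 0.25 for sleep deprivation, adjusted p = 0.170).

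Ciart, a repressor of CLOCK and BMAL1, was lower after sleep deprivation than in sleep in bound RNA. It read 5.32, 5.52 and 6.36 (lowest, median, highest) in sleep deprivation and 6.05, 6.22 and 6.46 in waking, against 6.02, 6.58 and 7.20 in sleep. Of the sleep deprived arrays, 4 lay below every array of the other states and 2 reached into their range. Sleep deprivation against sleep gave −0.84 ± 0.20 (1.79-fold lower, adjusted p = 0.00919), and waking against sleep −0.32 ± 0.20 (adjusted p = 0.349). Sleep deprivation against waking gave −0.52 ± 0.20, which was not called (adjusted p = 0.154).

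In unbound arrays Ciart read 6.21, 6.97 and 7.64 in sleep deprivation, 6.19, 6.80 and 7.06 in waking and 6.97, 7.23 and 7.53 in sleep. Sleep deprived arrays were spread over the ranges of both other states. The changes against sleep were −0.24 ± 0.22 in sleep deprivation and −0.49 ± 0.22 in waking (adjusted p = 0.568 and 0.177). Relative to the median change of all probe sets, the waking change was −0.40. The difference between fractions in the change of sleep deprivation against waking was −0.77 ± 0.27 and not called (adjusted p = 0.113), and was called without sleep deprived animal 6 (−0.98, adjusted p = 0.0336).

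Bhlhe40, the E-box repressor DEC1, was highest after sleep deprivation in unbound RNA. It read 10.56, 10.75 and 10.90 (lowest, median, highest) in sleep deprivation and 9.95, 10.48 and 10.57 in waking, against 9.99, 10.25 and 10.33 in sleep. All sleep deprived arrays lay above all sleep arrays, and the lowest of them fell just under the highest waking array. Sleep deprivation against sleep gave 0.53 ± 0.10 (1.45-fold higher, adjusted p = 0.00193). Against waking it gave 0.35 ± 0.10 (adjusted p = 0.0270), or 0.23 relative to the median change of all probe sets. That call was lost with the fraction's arrays at equal quantiles (0.22, adjusted p = 0.188), without the 3 animals (0.27, adjusted p = 0.0751) and without sleep deprived animal 6 (adjusted p = 0.0582) or 8 (adjusted p = 0.0535). Waking against sleep gave 0.19 ± 0.10 (adjusted p = 0.246), and 0.28 without waking animal 3 (adjusted p = 0.0309).

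Bound arrays held Bhlhe40 at 8.60, 9.09 and 9.53 in sleep deprivation, 8.70, 9.04 and 9.44 in waking and 8.61, 8.97 and 9.38 in sleep. The ranges nearly coincided, and the 95% interval of sleep deprivation against sleep was −0.25 to 0.50. The difference between the bound and the unbound change was −0.41 ± 0.18 and not called (adjusted p = 0.179).

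Bhlhe41, the related E-box repressor DEC2, had no called state change in either fraction by its leading probe set. In bound arrays its leading set read 6.47, 6.74 and 7.69 in sleep deprivation, 6.47, 6.71 and 7.25 in waking and 6.18, 6.51 and 6.66 in sleep. In unbound arrays it read 6.18, 6.53 and 7.34, then 5.73, 6.10 and 6.65, then 6.12, 6.48 and 6.81 in the same order of states. The bound changes against sleep were 0.41 ± 0.19 in sleep deprivation and 0.32 ± 0.19 in waking (adjusted p = 0.163 and 0.311). The unbound changes were 0.10 ± 0.20 and −0.33 ± 0.20 (adjusted p = 0.805 and 0.309). Sleep deprivation against waking gave 0.44 ± 0.20 in unbound arrays (adjusted p = 0.156), with 6 of 6 sleep deprived animals above the waking mean. The dim second set averaged 3.52 to 4.14 over the 3 bound groups and 4.14 to 4.91 over the unbound ones and was not tested. With the mean of both sets, unbound waking against sleep gave −0.55 (adjusted p = 0.0164) and unbound sleep deprivation against waking 0.48 (adjusted p = 0.0291), both called.

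Counted by leading probe set, 1 of the 7 genes was called in bound waking against sleep (Dbp), where 9.6% of 13923 genes were. In bound sleep deprivation against sleep 2 were called (Dbp and Ciart, both lower), against 14.5% of genes, and in bound sleep deprivation against waking 0 were, against 5.31%. In unbound waking against sleep 1 was called (Dbp), against 7.54% of genes. Unbound sleep deprivation against sleep had 3 (Bhlhe40 and Nfil3 higher, Dbp lower), against 7.79%. Unbound sleep deprivation against waking had 2 (Bhlhe40 higher, Hlf lower), against 10.2%. For the 0 in bound sleep deprivation against waking, the unadjusted p was below 0.05 for 1 gene, Ciart. Differences of a state change between fractions had 0 of 7 called by limma, where 5.57% of genes were for waking against sleep, 6.21% for sleep deprivation against sleep and 4.6% for sleep deprivation against waking. Unadjusted p was below 0.05 there for 1 gene (Bhlhe41), 3 genes (Nfil3, Ciart and Bhlhe40) and 1 gene (Ciart). Groups without overlap were found in 3.95% of all probe sets for bound and 5.69% for unbound sleep deprivation against waking, and in 0 of the 7 genes.

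The level of every member differed between the fractions of an animal. The level was lower in bound RNA for Dbp, Tef, Hlf, Ciart and Bhlhe40 and higher for Nfil3 and Bhlhe41. All 7 leading sets were called, where 83.6% of genes were. Fewer cells of a type and less RNA per cell cannot be told apart in such bulk fractions. Values relative to the median change of −0.40 are given beside each change, because quantile normalization over all 36 arrays moved that median to 0.05.

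**Figure D3:**
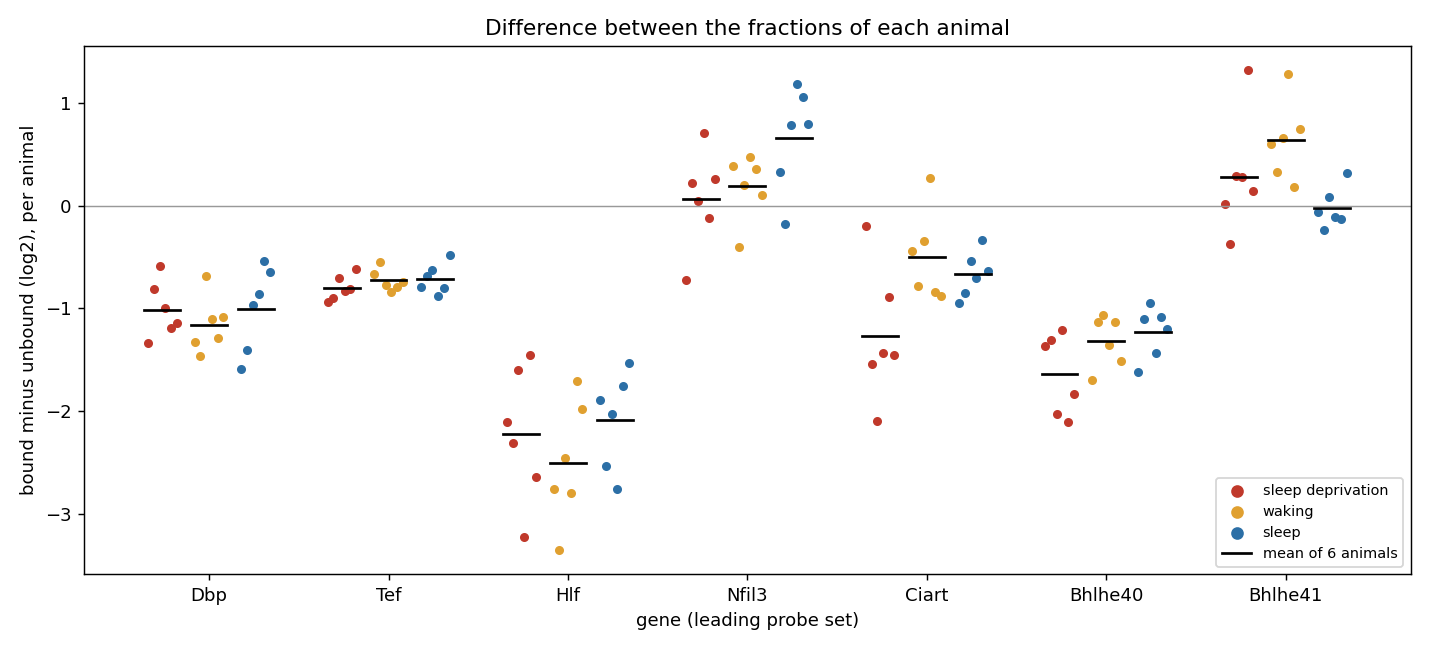
Difference of bound minus unbound log2 signal of each animal (vertical axis) for the leading probe set of each gene (horizontal axis), by state, with the mean of 6 animals as a line. Hlf lies farthest below 0, Tef is the least scattered, and Nfil3 and Bhlhe41 lie on both sides of 0.

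Hlf had the largest difference of the leading sets, at −2.27 ± 0.12 (4.83-fold lower in bound, SE, n = 18 animals; adjusted p = 7.69e-13; −1.88 relative to the median), and 18 of 18 animals were lower in bound RNA. Its second set gave −2.82 ± 0.06. Bhlhe40 followed with −1.40 ± 0.07 (2.63-fold, −1.0 relative), and its bound arrays all lay below its unbound ones. Fractions without overlap were found in 25.8% of all probe sets, and Tef and Hlf were the other members among them. Dbp gave −1.06 ± 0.07 (2.08-fold, −0.66 relative), with 18 of 18 animals lower in bound RNA, and the highest bound sleep array (11.34) lay above every unbound wake array. Ciart gave −0.81 ± 0.11 (1.76-fold, −0.42 relative), which fell to −0.22 after quantile normalization over all arrays and was then not called (adjusted p = 0.0742).

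Tef gave −0.75 ± 0.04 by its leading set (1.68-fold, −0.35 relative) and −0.83 ± 0.10 and −2.65 ± 0.16 by its other sets. The last is the set that was dim in bound arrays. All 3 agreed in direction in 18 of 18 animals.

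Nfil3 was higher in bound RNA by 0.31 ± 0.10 (adjusted p = 0.0102; 0.70 relative), in 14 of 18 animals. By state it stood 0.06 ± 0.48 above the unbound fraction in sleep deprivation, 0.19 ± 0.32 in waking and 0.66 ± 0.51 in sleep (SD, n = 6). The sleep animals, low in unbound RNA, had the widest gap. Bhlhe41 was higher by 0.30 ± 0.10 (adjusted p = 0.0113; 0.69 relative) in 13 of 18 animals. Taking the mean of its 2 probe sets turned this round, to −0.26 (adjusted p = 0.00383), so its direction rests on the leading set, the other being under the filter level.

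Markers of cell types also differed between the fractions. All 9 measured oligodendrocyte markers were higher in bound RNA, and their summed linear signal was 79762 to 90428 over bound and 21243 to 26567 over unbound arrays. All 8 neuron markers (22681 to 30715 against 47009 to 53696), 7 astrocyte markers (3435 to 5812 against 13108 to 19134), 7 microglia markers (235 to 590 against 1504 to 3122) and 3 tested endothelium markers (73.4 to 228 against 194 to 639) were lower. Of 4 precursor markers, 1 was higher and 3 were lower (250 to 528 against 553 to 1032). Array signal has no 0, so no marker can be called absent, and the bound fraction still held neuron signal. The unbound fraction likewise held oligodendrocyte signal, and which cells an unbound change comes from was not tested. Between states, unbound oligodendrocyte markers had 3 of 9 called higher in sleep deprivation against waking, where Bhlhe40 and Hlf were called (summed signal 24519 to 26567 in sleep deprivation and 21243 to 23020 in waking). Neuron markers had 2 of 8 called higher there. In unbound sleep deprivation against sleep 2 of 9 oligodendrocyte markers were higher and 1 lower (22270 to 24724 in sleep), and no neuron, astrocyte, microglia or endothelium marker was called. In bound sleep deprivation against sleep, where Dbp and Ciart were called, 2 oligodendrocyte markers were higher and 1 lower (81833 to 90428 against 86173 to 87569), and 1 neuron and 1 microglia marker were lower. In waking against sleep, 1 oligodendrocyte marker was higher and 3 were lower in each fraction, 1 endothelium marker was higher in bound RNA and 1 neuron marker was lower in unbound RNA. The part of these markers in the results was not tested.

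The other genes of the clock were read from a list of 17, of which 15 were tested. In bound RNA, waking against sleep called 1 higher, the repressor Cry1 (1.10 ± 0.15, adjusted p = 0.000169), and 1 lower, the repressor Nr1d1 (REV-ERBα, −0.71 ± 0.11, adjusted p = 0.000438). Their median change was −0.08. Sleep deprivation against sleep called 2 lower, the ubiquitin ligase gene Fbxl21 (−1.07 ± 0.28, adjusted p = 0.0127) and the kinase gene Csnk1e (−0.44 ± 0.14, adjusted p = 0.0458). Sleep deprivation against waking called Nr1d1 higher (0.50 ± 0.11) and Cry1 lower (−0.87 ± 0.15). Cry1 and Nr1d1 thus differed in bound RNA between sleep deprivation in the light and waking in the dark, where the kind of wake and the time of day cannot be told apart. Dbp differed by 0.03 there, with an interval of −0.36 to 0.42.

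In unbound RNA, waking against sleep called 4 higher and 1 lower. Those with the smallest p were the activator Npas2 (0.69 ± 0.10, adjusted p = 0.000477), the repressor Per2 (1.54 ± 0.23, adjusted p = 0.000671), Nr1d1 (−0.61 ± 0.12, adjusted p = 0.00421) and Cry1 (0.63 ± 0.13, adjusted p = 0.00647). Sleep deprivation against sleep called 4 higher and 0 lower: Per2 (1.31 ± 0.23, adjusted p = 0.00176), Arntl, which encodes BMAL1 (0.85 ± 0.17, adjusted p = 0.00471), Per1 (0.62 ± 0.16, adjusted p = 0.0207) and Cry2 (0.29 ± 0.09, adjusted p = 0.0499). Sleep deprivation against waking called Cry2 higher (0.32 ± 0.09) and Npas2 lower (−0.44 ± 0.10). Per1 and Per2, known E-box targets as Dbp is, were higher in sleep deprivation against sleep, where Dbp was lower. Between fractions 12 of 15 were lower in bound RNA and 1, Cry1, was higher (0.22 ± 0.07), with a median of −0.80 beside −0.40 for all probe sets.

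**Figure D4:**
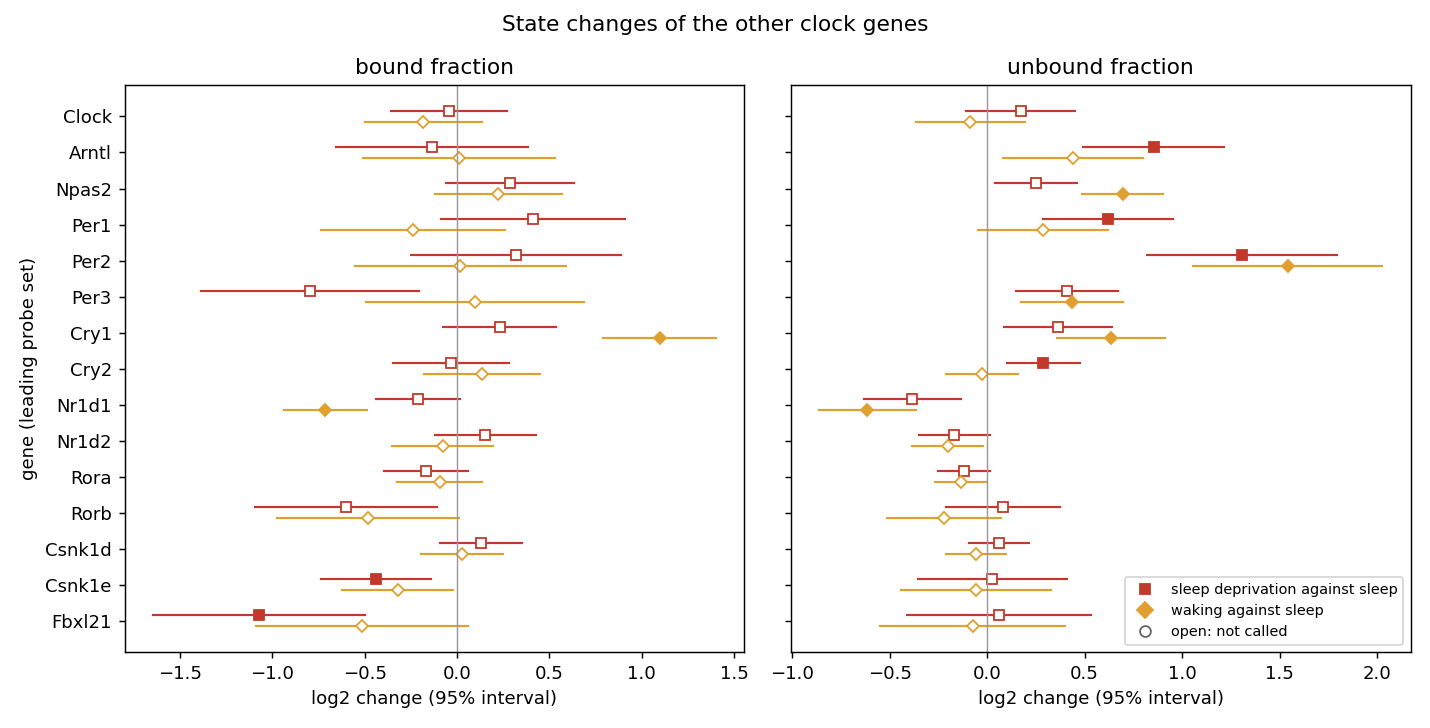
Log2 change with its 95% interval (horizontal axis) of 15 other clock genes (vertical axis) in waking and in sleep deprivation against sleep, 6 animals per state, in bound and unbound arrays; filled symbols have an adjusted p below 0.05. Per2 lies right of 0 and is called in both contrasts of unbound arrays, and Cry1 is called in waking in both fractions.

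The fraction difference was itself called for 1 to 2 of these genes in each contrast. For waking against sleep it was Per2 (−1.52 ± 0.32, adjusted p = 0.00802), for sleep deprivation against sleep Per3 (−1.21 ± 0.31, adjusted p = 0.0230) and Fbxl21 (−1.13 ± 0.28, adjusted p = 0.0214), and for sleep deprivation against waking Cry1 (−0.60 ± 0.17, adjusted p = 0.0478). A negative value means that the change was lower in bound RNA.

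Genes reported to depend on PAR bZIP factors in liver, kidney or brain gave 2 tested genes out of a list of 6. Pdxk, which makes the active form of vitamin B6, was higher in bound sleep deprivation against sleep (0.62 ± 0.19, adjusted p = 0.0334) and had no other called state change. Alas1, the first enzyme of haem synthesis, had none. Among 5 related bZIP genes, Cebpd was higher in bound waking (0.61 ± 0.15, adjusted p = 0.0123) and sleep deprivation (0.87 ± 0.15, adjusted p = 0.000562) against sleep. Ddit3 was higher in unbound sleep deprivation against sleep (0.42 ± 0.09, adjusted p = 0.00699) and against waking (0.33 ± 0.09, adjusted p = 0.0246). Of 5 Hes and Hey genes, relatives of the DEC repressors, Hey2 and Heyl had called bound changes at dim levels (2.77 to 4.94 log2 in group means), and none was called in unbound state contrasts.

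For members with a called state change, the 3 genes with the most alike pattern were sought among 13916 genes over the 18 arrays of the fraction. Arrays of a fraction share states and normalization, so these correlations are descriptions. Genes picked this way tend to share the state changes of the member, so their own changes and calls are no separate evidence. Dbp was most like Sphk2, a sphingosine kinase, in bound (r = 0.947) and in unbound arrays (r = 0.977), and within states r was 0.894 and 0.934. Sphk2 lies next to Dbp and their spans overlap in RefSeq, and whether probes of one read RNA of the other was not tested. Sphk2 was −0.58 ± 0.17 in bound waking (adjusted p = 0.0325) and −0.63 ± 0.17 in bound sleep deprivation (adjusted p = 0.0148) against sleep. In unbound arrays it was −0.70 ± 0.14 (adjusted p = 0.00513) and −0.75 ± 0.14 (adjusted p = 0.00286).

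**Figure D5:**
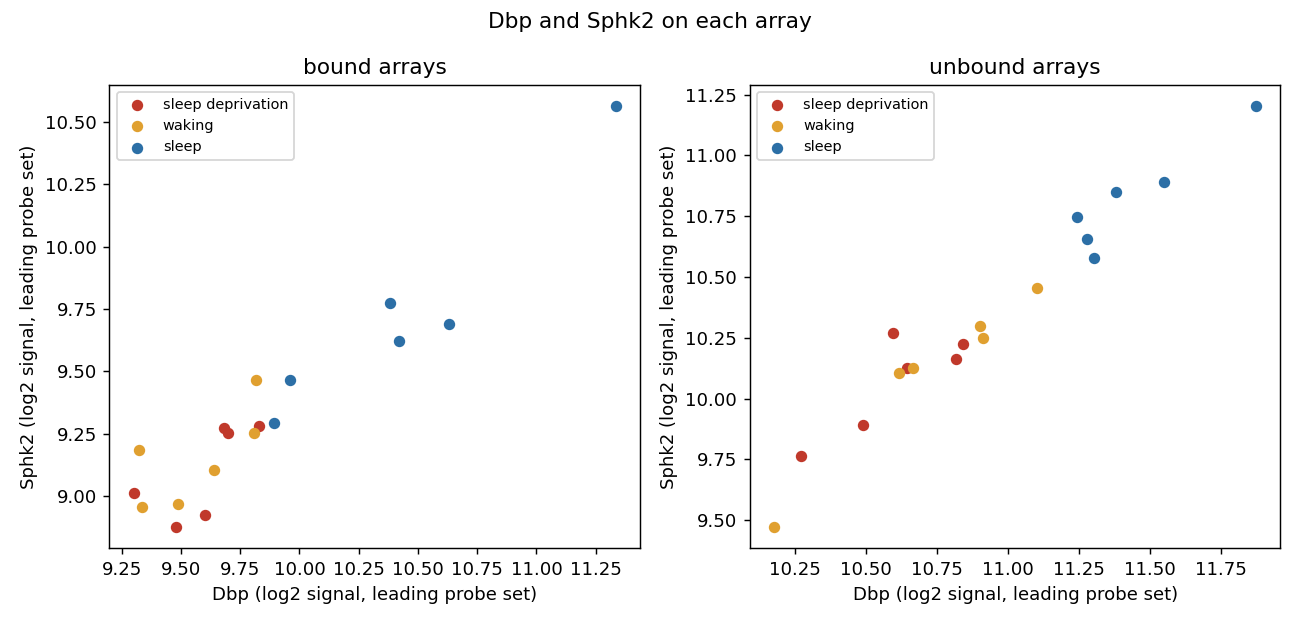
Log2 signal of Sphk2 (vertical axis) against Dbp (horizontal axis) on each of 18 bound and 18 unbound arrays, leading probe sets, by state. The sleep arrays lie at the upper right in both fractions, and both signals rise together.

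Next to Sphk2 came Fam53c (r = 0.881) and the Ras regulator Rasal1 (r = 0.881) in bound arrays, and the cold-inducible RNA-binding protein gene Cirbp (r = 0.900) and the translation factor gene Eif5 (r = 0.871) in unbound arrays. Cirbp was lower by −1.39 ± 0.21 in bound waking and −1.63 ± 0.21 in bound sleep deprivation against sleep. In unbound arrays its changes were −0.89 ± 0.15 and −1.0 ± 0.15. Bound Ciart was most like Rhno1 (r = 0.867), the growth factor gene Bmp2 (r = 0.859) and Dennd1a (r = 0.854). Bound Dbp and Ciart had r = 0.694 with each other, and r = 0.304 in unbound arrays.

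Unbound Bhlhe40 was most like the ERK phosphatase gene Dusp5 (r = 0.900), Dbndd2 (r = 0.864) and Per1 (r = 0.863), and within states r was 0.666, 0.772 and 0.716. Dusp5 was higher in unbound sleep deprivation against sleep by 1.26 ± 0.17 (adjusted p = 0.000128) and against waking by 0.69 ± 0.17 (adjusted p = 0.0136). Unbound Nfil3 was most like Bcat1 (r = 0.823), which starts the breakdown of branched-chain amino acids, Srsf10 (r = 0.802) and Zcchc24 (r = 0.795). Unbound Hlf was most like C2cd4b (r = 0.819), Gm20767 (r = 0.783) and Ankrd26 (r = 0.774), and within states r was 0.598, 0.436 and 0.542. They were all called lower in sleep deprivation against waking (−0.54 ± 0.15, −0.62 ± 0.12 and −0.50 ± 0.15). Gm20767 averaged 4.93 over unbound arrays, under the filter level of 5.18 there.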

How the data were processed

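RNA of both fractions of 18 mice was read on 36 arrays. The authors deposited log2 values per probe set that RMA made, per the submitters' processing notes (no version is named there). Which arrays were run through it together is not stated. Array medians (5.26 to 5.37 bound, 5.94 to 6.10 unbound) show that the fractions do not share 1 distribution, which touches differences between them. Among unbound arrays the waking medians (5.94 to 6.01) lay below all sleep and sleep deprived ones (6.06 to 6.10), which touches the unbound contrasts with waking. Gene names come from the array's platform annotation: of the 45037 probe sets left without the 64 array control sets, 34945 name 1 gene, 932 several and 9160 none.

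Values were used as deposited. A probe set was tested if its mean reached the 40th percentile of all sets in a fraction (4.47 bound, 5.18 unbound). States were compared in limma 3.58.1 (R 4.3.3, lmFit and eBayes with a trend) with a mean per state over the 18 arrays of a fraction, and fractions on differences within animals. Each gene is read by the probe set with the highest mean. Beside the members, up to 4 genes of a list with the smallest p in a contrast are named, and for each member called in a state contrast of a fraction the 3 genes most correlated with it there. The members and lists were chosen with earlier results of these data known. The labels call the replicates biological.

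Both fractions of an animal are paired by the labels. Their deviations from group means correlated at 0.00712 to 0.0876 (mean 0.0486), against a mean of −0.00273 between different animals. Of 18 bound arrays, 10 correlated best with the unbound array of their own animal. The highest correlation between any 2 arrays was 0.989, so no array was counted as a copy of another. Scripts were tested on simulated data. Alternatives were 2 quantile normalizations, no filter, no trend, 1 probe set per gene or their mean, a replicate block, leaving out the 3 animals set apart by sex-linked probe sets and, chosen after seeing the data, leaving out each animal in turn. Promoters are RefSeq's, and their motifs were found with Python 3.11.15.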

Additional observations from a re-analysis of the deposited data

Results flagged for a closer look

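In 6 of the 66 groups of 6 arrays tested, 1 animal stood far from the rest by Dixon's criterion, which chance alone meets in about 5% of groups. For the second Dbp set, sleep animal 5 read 10.30 in bound RNA, where the other 5 lay between 9.03 and 9.45, and waking animal 3 read 9.38 in unbound RNA, where the others lay between 9.85 and 10.12. The third Tef set read 8.64 in unbound RNA of sleep animal 1, against 7.22 to 7.57 in the others. The second Hlf set read 6.75 in bound RNA of sleep animal 3, against 6.98 to 7.11 in the others. Bhlhe40 read 9.95 in unbound RNA of waking animal 3, against 10.40 to 10.57 in the others, and this animal is among the 3 that sex-linked probe sets set apart. The leading Bhlhe41 set read 7.34 in unbound RNA of sleep deprived animal 7, against 6.18 to 6.59 in the others.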

How the results depend on the processing

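Of 162 checks of called changes under another setting, 150 kept direction and call, 11 lost the call and 1 turned direction; of 414 that left out 1 animal, 390 kept the call and 24 lost it. Dbp's leading set kept its 4 calls against sleep in all of them. For waking its highest limma adjusted p was 0.0486 in bound and 0.0415 in unbound arrays, close to the threshold. For sleep deprivation it was 0.0207 and 0.00363. Ciart kept its call in bound sleep deprivation against sleep (highest adjusted p 0.0316). So did Bhlhe40 in unbound sleep deprivation against sleep (0.00609) and Hlf in unbound sleep deprivation against waking (0.0255). Bhlhe41 in bound against unbound turned to −0.256 with the mean of a gene's probe sets.

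The count of members called in unbound waking against sleep, 1 as reported, was 3 with either quantile normalization, 2 with no filter, 3 with the mean of probe sets and 1 to 2 with 1 animal left out. In unbound sleep deprivation against waking, 2 as reported, it was 1 with either quantile normalization and without the 3 animals, 3 with the mean of probe sets (Bhlhe41 added), and 1 to 2 with 1 animal left out. In unbound sleep deprivation against sleep, 3 as reported, it was 2 with either quantile normalization, with no trend and without the 3 animals. With 1 animal left out it was 2 to 3. For the difference of fractions, 0 as reported, the mean of probe sets gave 1 (Bhlhe41) for waking against sleep and 1 for sleep deprivation against waking, where leaving out 1 animal gave 0 to 1. Leaving out 1 animal gave 1 to 1 in bound waking against sleep, 2 to 2 in bound sleep deprivation against sleep, 0 to 0 in bound sleep deprivation against waking and 7 to 7 in bound against unbound. Nfil3 in unbound sleep deprivation against sleep lost its call at adjusted p 0.0503 (no trend) to 0.0661 (without the 3 animals). The causes of these shifts were not tested.

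Waking and sleep animals share only a number in the labels, so the replicate block is no pairing by design. Still, 4 of 6 bound and 3 of 6 unbound samples correlated best with their own number. The mean correlation was 0.0574 for the same number and −0.0114 for other numbers in bound arrays. In unbound arrays these means were 0.0365 and −0.00672. What animals of 1 number share was not tested, and the reported fit has no such block. The replicate block was fitted without the sleep deprived arrays, which the reported fit includes. Effects of the block and of fewer arrays therefore cannot be told apart. With the replicate block the members called stayed at 1 in each fraction for waking against sleep. The second Tef set in bound waking lost its call (adjusted p 0.0831). All probe sets called were 2656 against 2850 bound and 1063 against 2269 unbound. With no replicate block for the animal, bound against unbound called 23931 against 23955.

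Over all probe sets, having no filter raised the calls to 8085 against 2850 in bound waking against sleep and 6903 against 2269 in unbound waking against sleep, with 45037 sets tested. One probe set per gene (13923) or their mean (11734) lowered the calls by having fewer to test, to 1318 and 1146 in bound waking against sleep. Without the 3 animals they were 1605 against 2850 in bound waking against sleep, 660 against 1691 in bound sleep deprivation against waking, 1244 against 2269 and 1560 against 3026 in the same unbound contrasts, and 877 against 1748 and 523 against 1453 for their fraction differences. Quantile normalization within a fraction gave 1381 against 3026 in unbound sleep deprivation against waking, and over all arrays it split bound against unbound into 12401 higher and 11224 lower, against 6856 and 17099 as reported. Low signal limits the third Tef set in bound RNA and the second Bhlhe41 set in both fractions.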
